A study of Homo sapiens with 9 samples.

Results

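The replication-type histone genes are the genes that supply the cell with core and linker histones while DNA is copied. They were taken as the protein-coding rows of the deposited expression table whose symbols begin with HIST1H, HIST2H, HIST3H or HIST4H, which gave 71 of the 58735 genes. Of these, 6 encode linker histone H1, 17 encode H2A, 18 encode H2B, 15 encode H3 and 15 encode H4. The genes lie in 4 clusters, with 55 members in HIST1 on chromosome 6, 12 in HIST2 and 3 in HIST3 on chromosome 1, and 1 in HIST4 on chromosome 12. A further 19 HIST-named rows are pseudogenes and were left out. The RNA came from HCT116, a human colorectal carcinoma cell line, in 3 groups of 3 libraries whose genotypes are labelled A20-WT, A20-KO and A20-OE. A20 is a ubiquitin-editing enzyme encoded by TNFAIP3. By the study's methods, guide RNAs in a LentiCRISPR v2 vector targeted the gene in the A20-KO cells. The methods name the third group sequenced as A20-KO-rescue (RE), knockout cells in which A20 was restored, and the labels have A20-OE in its place, so that the A20-OE cells are taken here to be those cells and to carry the knockout as well, which no source used here states outright. A pCMV-3xFlag-A20 vector is named for overexpression of A20, and whether the lines were single clones is not given in the sources used here.

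DNA is wound around octamers of core histones, which hold a pair each of H2A, H2B, H3 and H4, and linker histone H1 binds where the DNA enters and leaves. The genes described here have no introns in their main form, are transcribed mainly in S phase, and give mRNAs that end in a conserved stem-loop in place of a poly(A) tail. The stem-loop is bound by SLBP, which is needed to make, translate and degrade these mRNAs. Some of the genes are also known to give polyadenylated mRNAs, which read past the stem-loop. Because mRNA was purified on poly-T beads here, the libraries should mainly hold polyadenylated RNA. The values below are levels of the RNA so selected and not of the whole histone mRNA. Whether the counted histone transcripts carried a poly(A) tail was not measured.

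The 3′ end is the part of these mRNAs that sets them apart, so the stem-loops of 5 of the members with the highest levels are shown. They were read from the GENCODE 29 transcripts on GRCh38, whose gene lengths and coordinates equal those of the deposited table for 100% of the genes. The letters searched on the transcript strand were, in a row, GGNNCTT, any base, T, any base and AGNNCC, and capitals mark the match, with 5 bases on each side.
HIST3H2A: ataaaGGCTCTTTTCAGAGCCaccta
HIST1H2AC: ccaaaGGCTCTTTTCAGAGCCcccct
HIST1H2BD: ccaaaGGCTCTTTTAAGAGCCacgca
HIST1H3E: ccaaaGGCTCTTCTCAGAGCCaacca
HIST1H4I: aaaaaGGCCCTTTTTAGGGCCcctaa
The annotated genes differ in how much of the transcript they hold. In 33 of the 71 members the gene model holds coding bases only, and HIST1H1C (642 bases) and HIST1H2BK (381 bases) are among them, so that reads beyond the coding sequence of these genes were not counted. Of the other 38 members, 32 have a transcript with the stem-loop letters, against 0.524% (104 of 19851) of the other protein-coding genes. In 23 of these 32 the transcript runs more than 100 bases past the stem-loop, for example by 390 bases in HIST3H2A, 1128 in HIST1H2AC and 1862 in HIST1H3E. The cleavage signal AATAAA stood in the last 50 bases of a transcript in 16 of those 23 members, in 4 of the 9 members with a shorter stretch past the stem-loop, and in 73.4% of the other protein-coding genes. HIST1H2BD has a second, spliced transcript with no stem-loop letters.

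Promoters were read from RefSeq (GRCh38.p14), as the 250 bases before the start site, for 66 of the 71 members. HIST1H4A, HIST1H4C, HIST1H3J, HIST1H2AH and HIST1H3I had no entry under the same gene. The promoters of 4 leading members and of HIST2H2BE are shown, since the first 4 head the differences described below and HIST2H2BE shares its promoter region with a gene that did not rise with it. Capitals mark TATAAA on the plus strand of the gene, and CCAAT, ATTTGCAT (the octamer motif) and, in H1 genes, AAACACA (the H1 box) on both strands.
HIST1H1C (chr6:26056471-26056720, minus strand): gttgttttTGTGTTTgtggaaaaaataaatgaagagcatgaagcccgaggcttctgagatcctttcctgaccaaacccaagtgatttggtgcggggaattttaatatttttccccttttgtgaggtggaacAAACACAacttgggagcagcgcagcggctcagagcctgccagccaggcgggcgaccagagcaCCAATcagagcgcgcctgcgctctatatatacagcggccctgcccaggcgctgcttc
HIST1H2BK (chr6:27146856-27147105, minus strand): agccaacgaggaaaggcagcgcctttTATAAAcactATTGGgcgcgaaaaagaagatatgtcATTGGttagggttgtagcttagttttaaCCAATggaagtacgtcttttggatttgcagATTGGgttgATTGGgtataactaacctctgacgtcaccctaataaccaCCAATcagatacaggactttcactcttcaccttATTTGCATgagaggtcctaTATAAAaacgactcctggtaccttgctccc
HIST1H2BD (chr6:26157872-26158121, plus strand): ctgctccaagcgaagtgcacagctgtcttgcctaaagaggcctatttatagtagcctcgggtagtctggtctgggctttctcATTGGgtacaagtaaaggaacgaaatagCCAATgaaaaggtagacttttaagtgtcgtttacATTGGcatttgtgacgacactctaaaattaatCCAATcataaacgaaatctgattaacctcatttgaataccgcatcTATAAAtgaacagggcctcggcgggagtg
HIST1H2AC (chr6:26123922-26124171, plus strand): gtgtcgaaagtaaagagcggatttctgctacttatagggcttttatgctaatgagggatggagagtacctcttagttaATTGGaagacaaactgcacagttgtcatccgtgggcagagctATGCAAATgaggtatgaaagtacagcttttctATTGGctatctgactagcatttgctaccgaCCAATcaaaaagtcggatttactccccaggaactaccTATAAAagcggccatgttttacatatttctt
HIST2H2BE (chr1:149886683-149886932, minus strand): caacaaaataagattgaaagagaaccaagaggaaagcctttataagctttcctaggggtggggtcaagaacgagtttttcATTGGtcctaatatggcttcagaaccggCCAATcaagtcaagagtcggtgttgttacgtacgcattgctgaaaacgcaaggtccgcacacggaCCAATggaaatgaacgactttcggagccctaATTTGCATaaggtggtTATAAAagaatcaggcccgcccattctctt
TATAAA was present in 59.1% of the 66 member promoters against 6.8% of 35116 promoters in all, and CCAAT in 84.8% against 32%. ATTTGCAT was present in 37.9% of the member promoters against 1.63%, in 11 of 16 H2A and 14 of 18 H2B genes and in none of the H1, H3 and H4 genes. AAACACA stood in 6 of 6 H1 promoters and in no other member's, against 4.82% of all promoters. CCAAT was found in 3 of 13 H4 promoters and in every H1, H2A, H2B and H3 promoter. The 18 members that rose in the KO-labelled libraries and the 18 others that were tested and had a promoter held TATAAA in 10 and 14 cases, CCAAT in 16 and 14, and ATTTGCAT in 8 and 6. These matches are descriptions of the letters and no test was made of them.

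Reads per library ranged from 23406222 to 24963691, as recovered from the FPKM, and the histone genes took between 958 and 6770 of them. FPKM are the fragments on a gene divided by its length in kilobases and by a depth for its library. The depth implied by the deposited values was not the total of these reads. It was 22978140 beside 24492927 reads in A20-OE replicate 3, and 24824867 beside 23949140 in WT replicate 1. How the authors set that depth is not given in the sources used here. TNFAIP3 mRNA was not lower but higher in the KO-labelled libraries than in WT. Its log2 fold change of 0.95 passed an adjusted p under 0.05 by limma. Its level was 0.869, 0.8 and 0.736 FPKM in WT, 1.93, 2.16 and 1.04 FPKM in the KO-labelled libraries, and 58.7, 66.5 and 56.5 FPKM in A20-OE. A guide RNA can remove the protein and leave the mRNA, so that this mRNA does not check the knockout. The study has its own figure panel of A20 levels in its KO and RE cells, which was not used here. Of 7 colon epithelial markers, EPCAM, CDH1, KRT8, KRT18 and KRT19 were present and CDX2 passed the limit for testing. VIL1 was listed at 0 in WT and at no more than 0.039 FPKM on average in the other groups. Of 7 markers of blood, fibroblast and endothelial cells, 5 stayed under the limit for testing and COL1A1 was the highest, with 5.32 FPKM on average in WT, 13.3 in the KO-labelled libraries and 11.7 in A20-OE. These 7 genes summed to 4.98 to 6.15 FPKM in WT, 12.8 to 15.5 in the KO-labelled libraries and 11.2 to 12.5 in A20-OE, and the part of such cells in the results below was not tested.

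The histone RNA found after poly-T selection was several-fold higher in the KO-labelled libraries than in WT, and it did not return to the WT level in A20-OE. Summed over the 71 members it was 61.6, 54.3 and 62.4 FPKM in WT, 286, 260.5 and 327 FPKM in the KO-labelled libraries, and 337, 306 and 369 FPKM in A20-OE. The WT libraries lay far below all 6 others, and those of the other 2 groups overlapped. The sum was 4.89 times as high in the KO-labelled libraries as in WT and 5.67 times as high in A20-OE as in WT. In RPM, their reads scaled by the total of each library, the members took 45.1 ± 4.64 in WT, 224 ± 15.9 in the KO-labelled libraries and 266 ± 12.3 in A20-OE (SD, n = 3 each). The share of mitochondrial reads was 8.79% ± 1.3 in WT, 10.4% ± 1.36 in the KO-labelled libraries and 12.7% ± 1.08 in A20-OE (SD, n = 3), with overlap between the first pair, and its part in the result was not tested. In bulk RNA, a change in the number of cells that make an RNA and a change in the RNA per cell cannot be told apart.

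The sums rested on a few genes. Averaged over the 9 libraries, 13 members reached a mean FPKM of 1, the 5 highest of all took 77.4% of the members' reads, and HIST1H1C alone took 24.8%. At the other end, 18 members were listed at 0 in every library, and 13 more had reads but stayed under the mean FPKM of 0.1 needed for the test. RNAs that every cell uses, such as RN7SK and RMRP, were also listed at 0, so a member listed at 0 is not shown to be silent. Among the members at 0, HIST1H3D, HIST1H2AK, HIST2H3PS2, HIST1H2AD and HIST1H2AM share 88% to 100% of their exonic bases with other annotated genes. How reads on shared bases were counted is not given in the sources used here. The remaining 40 members were tested with limma on log2(FPKM + 0.1), all 9 libraries and 3 groups in one fit. That limit is set on the mean of all 9 libraries, so a gene low in WT could pass it through its level in the other groups.

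In the KO-labelled libraries against WT, 18 of the 40 tested members were higher at a Benjamini-Hochberg adjusted p under 0.05, 45% of those tested. None was lower by limma, also at an unadjusted p under 0.05, or by limma-voom, which called 17 higher. Among all 21636 genes tested, 11.3% were higher and 11% lower. With the further demand of an absolute log2 fold change above 1, 17 members were higher, and 4.91% of all genes were. The median log2 fold change of the tested members was 1.20, and that of all genes was -0.0050. The direction was upward for every called member when the values were scaled by median-of-ratios or to nuclear protein-coding reads. Median-of-ratios left the values nearly as deposited, with a member median of 1.1939 beside 1.1966, so it is hardly a separate check.

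H1 was the class with the largest ratio, and it was almost one gene. HIST1H1C (ENSG00000187837, chr6:26055787-26056428, minus strand) encodes a linker histone and had the highest level of the 6 H1 members, at 8.47, 6.92 and 9.22 FPKM in WT, 82.2, 70.7 and 108 FPKM in the KO-labelled libraries, and 110.2, 97.9 and 127 FPKM in A20-OE. All 6 libraries of the other groups lay above WT without overlap, and those 2 groups overlapped each other. The log2 fold change to WT was 3.38 (SE 0.18, limma adjusted p = 2.42e-05) in the KO-labelled libraries and 3.75 (SE 0.18, limma adjusted p = 4.73e-06) in A20-OE. HIST1H1C made up 92.2% ± 4.34 of the summed H1 FPKM in WT and 98.9% ± 0.272 in the KO-labelled libraries (SD, n = 3). HIST1H1E, the other tested linker histone gene, stayed at 0.69 ± 0.367 FPKM in WT and 0.864 ± 0.137 FPKM in the KO-labelled libraries (SD, n = 3), with an adjusted p of 0.488 from limma. HIST1H1A and HIST1H1B were listed at 0 throughout, and HIST1H1D had at most 5 reads in a library. The H1 sum was 9.9 times as high in the KO-labelled libraries as in WT.

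Among the H2A genes, 3 of 10 tested rose in the KO-labelled libraries and 5 of the 17 were listed at 0. HIST3H2A (ENSG00000181218, chr1:228456979-228457873, minus strand), which encodes an H2A outside the main cluster, was the highest, at 12.4, 7.38 and 10.4 FPKM in WT, 28, 24.5 and 32.8 FPKM in the KO-labelled libraries and 32.1, 30.3 and 32.6 FPKM in A20-OE. Its libraries did not overlap with WT in either group, and the log2 fold change in the KO-labelled libraries was 1.51 (SE 0.18, limma adjusted p = 0.000791). HIST1H2AC (ENSG00000180573, chr6:26124145-26139116, plus strand) stood at 2.17, 1.66 and 1.65 FPKM in WT, 13, 11.6 and 12.9 FPKM in the KO-labelled libraries and 19.1, 17.6 and 22.6 FPKM in A20-OE. The 3 groups did not overlap, with WT lowest and A20-OE highest. Its log2 fold change to WT was 2.72 in the KO-labelled libraries (SE 0.14, limma adjusted p = 2.42e-05), and its share of the summed H2A FPKM went from 10.9% ± 2.33 in WT to 26.4% ± 1.73 in the KO-labelled libraries (SD, n = 3).

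The third H2A gene that rose was HIST1H2AG, named after its values were seen, whose log2 fold change of 0.87 (limma adjusted p = 0.0108) was under 1. HIST2H2AC (ENSG00000184260, chr1:149886975-149887364, plus strand) did not move with these genes. It was at 5.27, 1.85 and 2.26 FPKM in WT, 2.64, 1.25 and 2.75 FPKM in the KO-labelled libraries and 1.65, 1.24 and 1.56 FPKM in A20-OE. WT replicate 1 was the highest of the 9 libraries for this gene, and the log2 fold change in the KO-labelled libraries was -0.41 (SE 0.40, limma adjusted p = 0.513). The H2A sum was 17.4 ± 5.73 FPKM in WT and 47.5 ± 5.51 FPKM in the KO-labelled libraries (SD, n = 3), 2.73 times as high.

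H2B was the class with the most members called, 8 of 12 tested, and 3 of its 18 genes were listed at 0. HIST1H2BK (ENSG00000197903, chr6:27146418-27146798, minus strand) was at 13.6, 19.5 and 19.9 FPKM in WT, 79.6, 77 and 86 FPKM in the KO-labelled libraries and 71.1, 64.3 and 77.7 FPKM in A20-OE. WT lay apart from both other groups, which overlapped, and the log2 fold change in the KO-labelled libraries was 2.20 (SE 0.15, limma adjusted p = 8.05e-05). HIST1H2BD (ENSG00000158373, chr6:26158146-26171349, plus strand) had the largest log2 fold change of all members on the log2(FPKM + 0.1) scale, from 2.68, 3.63 and 3.9 FPKM in WT to 40.8, 37.1 and 46.3 FPKM in the KO-labelled libraries and 69, 59.6 and 71.3 FPKM in A20-OE. The 3 groups did not overlap. The log2 fold change to WT was 3.58 in the KO-labelled libraries (SE 0.15, limma adjusted p = 9.13e-06) and 4.26 in A20-OE (SE 0.15, limma adjusted p = 1.51e-06). By the plain ratio of group means, which the added 0.1 does not lower, HIST1H2BD was 12.2 times as high in the KO-labelled libraries as in WT, and HIST1H4H, described below with few reads in WT, 16.9 times.

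The make-up of the H2B sum differed between groups. HIST1H2BK held 74.7% ± 1.6 of it in WT, 61.8% ± 0.509 in the KO-labelled libraries and 47.8% ± 0.605 in A20-OE (SD, n = 3). HIST1H2BD held 14.4% ± 0.153, 31.6% ± 1.45 and 44.9% ± 0.871 in the same order (SD, n = 3). HIST1H2BC, which faces HIST1H2AC across a shared promoter region, rose from 0.0483, 0.528 and 0.336 FPKM in WT to 1.63, 1.02 and 2.31 FPKM in the KO-labelled libraries and 3.23, 3.62 and 4.64 FPKM in A20-OE. The 3 groups did not overlap, and the WT values rested on 1, 11 and 7 reads. The log2 fold change of HIST1H2BC in the KO-labelled libraries was 2.28 (SE 0.49, limma adjusted p = 0.0109), and in a fit of those 2 groups alone the adjusted p was 0.0557. The other 5 H2B genes that rose were HIST2H2BE, HIST1H2BJ, HIST1H2BE, HIST1H2BN and HIST2H2BF, with log2 fold changes between 1.18 and 1.98. Of these, 28.2% of the exonic bases of HIST1H2BE are shared with an antisense gene, AL353759.1, 7.25% of those of HIST1H2BN with HIST1H2AK and HIST1H2AL, and 5.54% of those of HIST2H2BF with FCGR1A, and whether the counting used strand is not given in the sources used here. Of these 5, the last 4 were named after their values were seen.

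**Figure D1:**
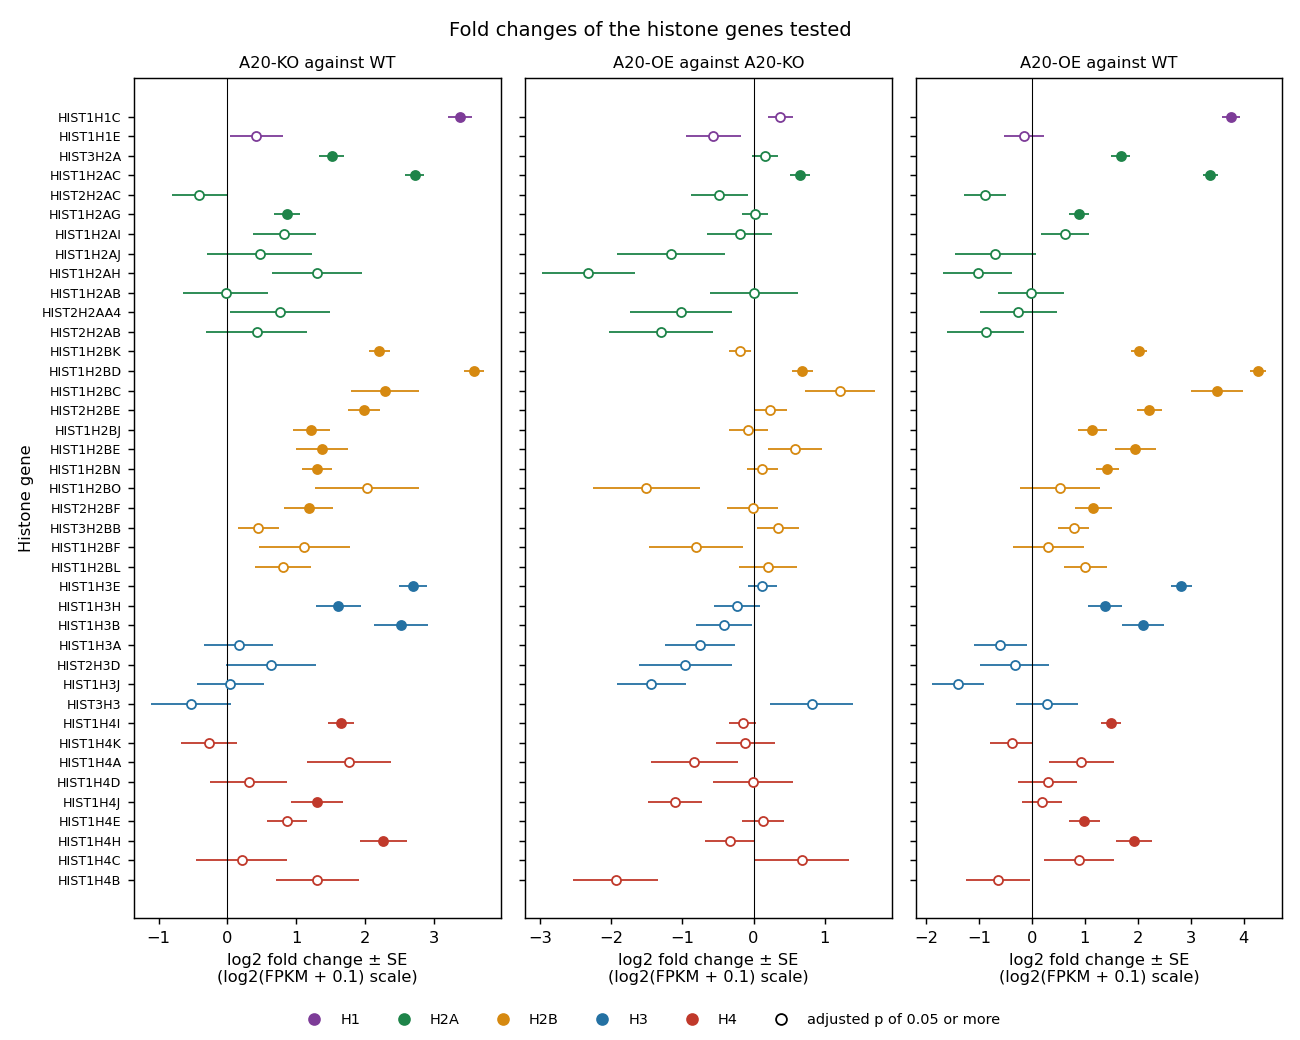
Log2 fold change with its standard error from limma (log2(FPKM + 0.1) scale) for the 40 histone genes tested, by class and mean level, in the 3 comparisons. Filled points have an adjusted p under 0.05. Filled points are all to the right of 0, 18 in the KO-labelled libraries against WT, 2 in A20-OE against the KO-labelled libraries and 18 in A20-OE against WT.

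Of the H3 genes 3 of 7 tested rose, and of the H4 genes 3 of 9. HIST1H3E (ENSG00000274750, chr6:26224199-26227473, plus strand), the highest H3 gene, went from 0.872, 0.448 and 0.493 FPKM in WT to 4.58, 4.1 and 4.29 FPKM in the KO-labelled libraries and 4.66, 4.51 and 4.99 FPKM in A20-OE. WT was separate from both other groups, and the log2 fold change in the KO-labelled libraries was 2.70 (SE 0.20, limma adjusted p = 0.000132). HIST1H3H and HIST1H3B also rose, by log2 fold changes of 1.61 (limma adjusted p = 0.00775) and 2.52 (limma adjusted p = 0.00262). HIST1H3B rested on 1, 3 and 6 reads in WT and 19, 20 and 22 in the KO-labelled libraries. The other 4 tested H3 genes did not pass the test, and 5 of the 15 were listed at 0. The H3 sum was 3.5 ± 0.742 FPKM in WT and 10.8 ± 0.24 FPKM in the KO-labelled libraries (SD, n = 3).

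HIST1H4I (ENSG00000276180, chr6:27138588-27139881, plus strand), the highest H4 gene, was at 3.39, 2.16 and 2.01 FPKM in WT, 7.12, 7.76 and 8.92 FPKM in the KO-labelled libraries and 6.21, 7.29 and 7.9 FPKM in A20-OE. WT did not overlap with the others, and the log2 fold change in the KO-labelled libraries was 1.65 (SE 0.19, limma adjusted p = 0.000755). HIST1H4K, the second H4 gene by level, had 2.19, 2.44 and 1.41 FPKM in WT, 3.56, 1.04 and 1.1 FPKM in the KO-labelled libraries and 1.37, 1.55 and 1.53 FPKM in A20-OE. Its groups overlapped, and the log2 fold change in the KO-labelled libraries was -0.27 (SE 0.41, limma adjusted p = 0.688). The other H4 genes that passed the test were HIST1H4H and HIST1H4J. HIST1H4H was seen in WT with 4, 1 and 0 reads, with 19, 36 and 27 in the KO-labelled libraries and 15, 28 and 18 in A20-OE. HIST1H4J had 2 reads in each WT library and 3, 7 and 10 in the KO-labelled libraries, at least 2.32-fold higher against a floor of 3 reads per library. H4 had the smallest ratio of the 5 classes, with a sum 2.29 times as high in the KO-labelled libraries as in WT.

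**Figure D2:**
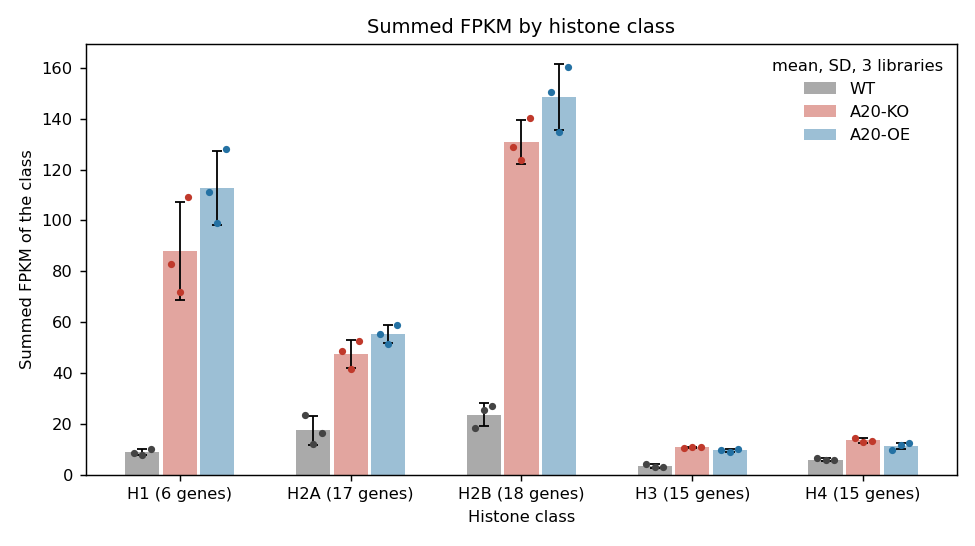
FPKM summed over all genes of each histone class, listed zeros included, with bars for the mean of 3 libraries, error bars for the SD and points for the libraries. In each class the 3 WT sums lie below the 6 others, and the H1 and H2B sums are the ones that exceed 70 FPKM in every KO-labelled library or A20-OE.

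The order of the classes by summed FPKM was H2B, H2A, H1, H4 and H3 in WT, and H2B, H1, H2A, H4 and H3 in the KO-labelled libraries and in A20-OE. Neighbours in the WT order stood at 23.7 ± 4.58 (H2B), 17.4 ± 5.73 (H2A) and 8.89 ± 1.16 (H1) FPKM (SD, n = 3), so that the SDs of H2B and H2A overlapped. In the KO-labelled libraries, H2B stood at 131 ± 8.61 and H1 at 88 ± 19.3 FPKM (SD, n = 3). Between core histones, which enter the octamer in equal numbers, the poly-T-selected RNA per length of gene model differed widely. H4 had 13.6 ± 0.924 FPKM (SD, n = 3) beside that value of H2B.

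The clusters differed as well. HIST1 summed to 44.4 ± 3.36 FPKM in WT and 255 ± 29.5 FPKM in the KO-labelled libraries (SD, n = 3), 5.76 times as high, with 15 of 31 tested members called. HIST3 was 2.76 times as high, through HIST3H2A. HIST2 was 4.5 ± 2.15 FPKM in WT and 6.41 ± 0.373 FPKM in the KO-labelled libraries (SD, n = 3), 1.42 times as high with overlapping libraries, and 2 of its 6 tested members were called. Without WT replicate 1, where HIST2H2AC was high, the log2 ratio of the HIST2 sums went from 0.51 to 0.97. HIST4H4, the single HIST4 gene, had at most 8 reads in a library and was not tested.

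Within HIST1 the members fall into 4 groups with more than 200000 bases between them. The group from 26017085 to 26285638, which holds HIST1H1C, HIST1H2AC and HIST1H2BD, had 8 of 17 tested members called in the KO-labelled libraries, and its members' mean FPKM summed to 17.8 in WT and 155 in the KO-labelled libraries. The group from 27125897 to 27147515, with HIST1H2BK and HIST1H4I, had 4 of 5 called, and went from 21.3 to 91.5 FPKM. The group from 27807444 to 27893843 had 3 of 9 called, and went from 5.19 to 8.86 FPKM. The remaining group holds HIST1H2AA and HIST1H2BA, known as testis genes, which were listed at 0. Between the ends of HIST1, 20 other protein-coding genes lie among the histone genes, of which 14 were tested. In the KO-labelled libraries 3 of them were higher, TRIM38, PRSS16 and BTN3A3, beside 11.3% of all genes tested. None of the 3 had a log2 fold change above 1, and the median of the 14 was 0.14. These 3 were named after their values were seen. In A20-OE against WT 5 of the 14 were higher and 1 lower, beside 15.7% and 15.4% of all genes. BTN3A3 had a log2 fold change of 1.07 there (limma adjusted p = 0.000831), and the median of the 14 was 0.25.

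**Figure D3:**
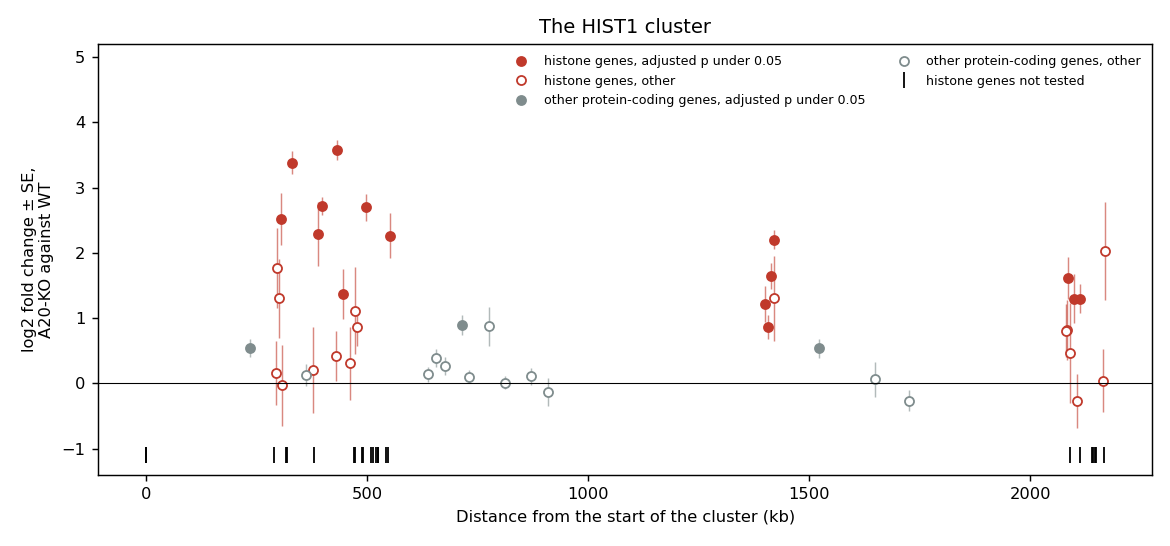
Log2 fold change in the KO-labelled libraries against WT, with its standard error from limma, along the HIST1 cluster, by distance in kb from its first histone gene. Histone genes are red, other protein-coding genes are grey, filled points have an adjusted p under 0.05, and ticks mark histone genes that were not tested. The called histone genes reach 3.58 and the called neighbours stay under 1.

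Many H2A and H2B genes stand head to head, with less than 500 bases between their gene models, and their levels were far apart in several pairs. The distances below are between the annotated models. A model with coding bases only begins at the coding sequence, so the start sites can lie closer. For HIST1H2BK the RefSeq start site lies 57 bases from the end of the model. HIST1H2BK and HIST1H2AH lie 330 bases apart, and had mean levels of 80.9 FPKM and 0.494 FPKM in the KO-labelled libraries. HIST3H2A and HIST3H2BB lie 233 bases apart and had 28.4 and 0.351 FPKM there. HIST1H2AC and HIST1H2BC, 218 bases apart, were both called and had 12.5 and 1.66 FPKM. HIST2H2BE and HIST2H2AC, 322 bases apart, are the pair in which one was called and the other had a fold change below 0. HIST2H2BE was at 0.33, 0.584 and 0.328 FPKM in WT, 1.63, 2.43 and 1.68 FPKM in the KO-labelled libraries and 2.03, 2.44 and 2.24 FPKM in A20-OE, with a log2 fold change of 1.98 in the KO-labelled libraries (SE 0.23, limma adjusted p = 0.000712). HIST2H2AC has a coding length of 390 bases, and the model of HIST2H2BE runs 1729 bases past its stem-loop. HIST1H2BJ and HIST1H2AG, 291 bases apart, were both called, at 1.15 and 1.04 FPKM.

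The kind of gene model went along with the calls. Of the 33 members with coding bases only, 14 were tested and 3 rose in the KO-labelled libraries, HIST1H1C, HIST1H2BK and HIST1H3B, while 16 were listed at 0. Of the 21 members with a model that holds other bases and is over 1000 bases long, 13 were tested and 10 rose, and 1 was listed at 0. Of the 17 with other bases and up to 1000 bases, 13 were tested, 5 rose and 1 was listed at 0. A longer model collects more reads, and how far this sets which members could be called was not tested. The coding-only members still held 35.5% ± 3.14 of the members' reads in WT and 41.4% ± 1.94 in the KO-labelled libraries (SD, n = 3).

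Members that are near-identical copies or germline genes gave little. HIST2H2AA3 and HIST2H2AA4, HIST2H3A and HIST2H3C, and HIST2H4A and HIST2H4B are copies of one another, and reads that fit both cannot be assigned to one, so their values are uncertain. HIST2H2AA3 had at most 4 reads and HIST2H2AA4 at most 7 in a library, and HIST2H3A and HIST2H3C at most 2. HIST2H4A and HIST2H4B had no read in WT, at most 5 and 2 in a KO-labelled library, and at most 12 and 10 in an A20-OE library. Most H4 genes are known to encode the same protein, though HIST1H4G has 297 coding bases where HIST1H4I has 312. Proteins were not compared here. Many H4 genes share long stretches of sequence, with the same uncertainty. HIST2H3D was at 0.619 ± 0.317 FPKM in WT and 1.00 ± 0.438 FPKM in the KO-labelled libraries (SD, n = 3). Of the testis genes, HIST1H1T had 0 reads in WT and at most 8 in any library, and HIST3H3 passed the limit for testing with an adjusted p of 0.566 from limma in the KO-labelled libraries against WT.

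A20-OE against the KO-labelled libraries asks whether putting A20 back reversed these levels. No tested member was lower at an adjusted p under 0.05 by limma or limma-voom, although 4 low-level genes were at an unadjusted p (HIST1H4J, HIST1H3J, HIST1H2AH and HIST1H4B, named after their values were seen). Each of these 4 was called lower when a single library was left out, with limma adjusted p from 0.0347 to 0.0419: HIST1H4J without KO replicate 1, HIST1H3J without OE replicate 1, HIST1H4B without WT replicate 3, and HIST1H2AH without KO replicate 3 or WT replicate 1. The members that were higher were 2, HIST1H2BD and HIST1H2AC, against 4.43% of all genes higher and 4.54% lower. Neither passed a log2 fold change of 1, which 1.56% of all genes did upward. HIST1H2BD stood at 41.4 ± 4.59 FPKM and then 66.6 ± 6.18 FPKM (SD, n = 3), and its log2 fold change was 0.69 (SE 0.15, limma adjusted p = 0.0271). HIST1H2AC stood at 12.5 ± 0.751 and then 19.8 ± 2.53 FPKM (SD, n = 3), and its log2 fold change was 0.65 (SE 0.14, limma adjusted p = 0.023). Both calls needed nearly every library: that of HIST1H2AC was lost without any of the 6 libraries compared, with adjusted p from 0.051 to 0.0832, and that of HIST1H2BD without replicate 1 or 2 of the KO-labelled libraries or any A20-OE library, with adjusted p from 0.06 to 0.102. HIST1H2BC had a log2 fold change of 1.22 with all A20-OE libraries above those labelled A20-KO, and an adjusted p of 0.161 from limma, which was 0.03 without WT replicate 1 and 0.0419 with limma-voom. HIST1H2BK had 71 ± 6.68 FPKM in A20-OE and 80.9 ± 4.66 in the KO-labelled libraries (SD, n = 3), with a log2 fold change of -0.19 (limma adjusted p = 0.468). HIST1H2AH, HIST1H4B and HIST2H2AB had no read in any A20-OE library, and had at most 8 in a KO-labelled library. The median log2 fold change of the tested members was -0.13, and that of all genes 0.013.

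A20-OE against WT shares its libraries with the other 2 comparisons. Of the 40 tested members 18 were higher and none lower by limma at an adjusted p under 0.05, beside 15.7% of all genes higher and 15.4% lower, and 16 were higher with a log2 fold change above 1, beside 7.68%. The 5 largest rises on the log2(FPKM + 0.1) scale were those of HIST1H2BD, HIST1H1C, HIST1H2BC, HIST1H2AC and HIST1H3E. By the ratio of group means HIST1H4H, at 12.7, stood between HIST1H1C and HIST1H2BC, with a log2 fold change of 1.93 on that scale. That ratio is uncertain, since the WT mean of HIST1H4H, 0.031 FPKM, rests on 4, 1 and 0 reads. The gene passed the limit for testing through the other groups. HIST1H2BC had a log2 fold change of 3.5 (SE 0.49, limma adjusted p = 0.000825), HIST1H2AC of 3.37 (SE 0.14, limma adjusted p = 2.06e-06) and HIST1H3E of 2.82 (SE 0.20, limma adjusted p = 2.75e-05). The H1 sum was 12.7 times and the H2B sum 6.26 times as high as in WT, against 1.91 times for H4. HIST2H2AC was the highest-level member below WT, with a log2 fold change of -0.89 and an adjusted p of 0.126 from limma, WT replicate 1 being its highest library. HIST1H3J, which shares 44.6% of its exonic bases with HIST1H2AM, had 6, 4 and 7 reads in WT and 4, 0 and 0 in A20-OE. It was the 1 member lower at an unadjusted p under 0.05 (log2 fold change -1.39, limma adjusted p = 0.0561), and it was called lower by limma-voom (adjusted p = 0.0297) and by limma without OE replicate 1 (adjusted p = 0.00829), with a GC correction (adjusted p = 0.0381) and with a pseudocount of 0.01 (adjusted p = 0.0493).

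For a single gene the exact two-sided permutation test of 3 libraries against 3 cannot give a p under 0.1. The highest member of each class, HIST1H1C, HIST3H2A, HIST1H2BK, HIST1H3E and HIST1H4I, reached that smallest p of 0.1 against WT in the KO-labelled libraries and in A20-OE.

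Of 18 genes of histone gene transcription, 3′ processing and decay, 10 were lower and none higher in the KO-labelled libraries at an adjusted p under 0.05, beside 11% of all genes lower. The other 8 did not pass the test. By limma at an unadjusted p under 0.05, and by limma-voom, none was higher either, and this held for the S phase and chaperone genes described next. SLBP, the stem-loop binding protein, had 83.9, 80.9 and 87.1 FPKM in WT, 49.8, 50.5 and 49 FPKM in the KO-labelled libraries and 50.4, 48.7 and 55.4 FPKM in A20-OE. The KO-labelled and A20-OE libraries overlapped, both below WT, and the log2 fold change in the KO-labelled libraries was -0.75 (SE 0.08, limma adjusted p = 0.000565). NPAT, a coactivator of histone gene transcription, fell by 0.78 on the log2 scale (limma adjusted p = 0.0306), and CASP8AP2, also known as FLASH and needed for the 3′ cleavage, fell by 0.83 (limma adjusted p = 0.0293). CSTF2, a cleavage factor of polyadenylation, fell by 0.75 (limma adjusted p = 0.000554). In A20-OE against WT 11 of the 18 were lower and 1, the cap-binding gene NCBP2, was higher. Of all genes 15.4% were lower and 15.7% higher in that comparison.

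Most genes of a list active in S phase, when these histone genes are transcribed, were lower as well. In the KO-labelled libraries 17 of the 20 were lower and none higher, beside 11% of all genes lower. Of these 17, 13 had a log2 fold change under -1, beside 449 of all 21636 genes. In A20-OE against WT all 20 were lower, beside 15.4% of all genes. PCNA, the sliding clamp of DNA replication, had 294, 246 and 267 FPKM in WT, 119, 109 and 130.3 FPKM in the KO-labelled libraries and 74.8, 70.4 and 91 FPKM in A20-OE. The 3 groups did not overlap, in the order WT, A20-KO and A20-OE, and the log2 fold change in the KO-labelled libraries was -1.17 (SE 0.13, limma adjusted p = 0.000555). RRM2, a subunit of the enzyme that makes deoxynucleotides, fell by 1.30 on the log2 scale (limma adjusted p = 0.000176), and GINS2, a part of the replicative helicase, by 1.20 (limma adjusted p = 0.00166). From the KO-labelled libraries to A20-OE, 14 of the 20 were lower, beside 4.54% of all genes. These counts kept their direction under the 2 other scalings, with 17 and 18 genes lower in the KO-labelled libraries.

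Of 20 histone chaperone and import genes, 12 were lower and none higher in the KO-labelled libraries, beside 11% of all genes lower. In A20-OE against WT 15 of the 20 were lower, beside 15.4% of all genes. CHAF1A, the large subunit of the chaperone that loads H3 and H4 behind the fork, fell by 0.84 on the log2 scale in the KO-labelled libraries (limma adjusted p = 0.000369). ASF1B, another H3 and H4 chaperone, had a log2 fold change of -0.34 there (limma adjusted p = 0.124) and fell by 1.36 in A20-OE against WT (limma adjusted p = 0.000173).

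Replacement histone genes, many of which are made throughout the cell cycle as polyadenylated mRNA, moved in both directions in the KO-labelled libraries and mostly downward in A20-OE. In the KO-labelled libraries 2 of 11 were higher and 3 lower, beside 11.3% of all genes higher and 11% lower. In A20-OE against the KO-labelled libraries none was higher and 6 were lower, beside 4.43% and 4.54% of all genes. Against WT, 1 was higher in A20-OE and 6 were lower, beside 15.7% and 15.4%. Counts in so short a list say little about the list as a whole. H1F0, the linker histone of resting cells, had 185, 252 and 253 FPKM in WT, 404, 396 and 429.6 FPKM in the KO-labelled libraries and 436, 411 and 454 FPKM in A20-OE. WT lay below both groups, and the log2 fold change in the KO-labelled libraries was 0.85 (SE 0.14, limma adjusted p = 0.00354). H2AFJ rose with a log2 fold change of 1.09 (limma adjusted p = 0.0213). H3F3A and H3F3B, which encode the replacement form of H3, had log2 fold changes of 0.16 and 0.010 in the KO-labelled libraries, with adjusted p of 0.304 and 0.965 from limma. H2AFX, the H2A form phosphorylated at DNA breaks, had a log2 fold change of -0.013 in the KO-labelled libraries and fell by 1.13 from there to A20-OE (limma adjusted p = 0.0154), and H2AFZ fell by 0.65 in that last comparison (limma adjusted p = 0.0325).

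Of 11 named RNAs without a poly(A) tail, 8 were listed at 0 in every library, so that their sum was nearly RN7SL2 alone and says little of how much such RNA came through the poly-T beads. The 11 took 2.28 ± 1.83 RPM in WT, 6.36 ± 1.58 in the KO-labelled libraries and 2.5 ± 0.93 in A20-OE (SD, n = 3), and of these RNAs 2 could be tested, RN7SL2 and RNU4ATAC. Neither passed an adjusted p under 0.05 with limma in any comparison. In the KO-labelled libraries against WT both were higher at an unadjusted p under 0.05, and limma-voom called RN7SL2 higher. All snRNA, snoRNA, scaRNA and rRNA genes together took 93.5 ± 13.2, 75.2 ± 3.91 and 85.9 ± 12.8 RPM in the same order (SD, n = 3).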

How the data were processed

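RNA of HCT116 cells labelled A20-WT, A20-KO and A20-OE was sequenced in 3 libraries per group. The authors purified mRNA on poly-T beads, sequenced 150 bp paired ends, counted reads per gene with featureCounts (1.5.0-p3; HISAT2 2.0.5 is also named in the submitters' processing notes), tested them with DESeq2, and deposited the values as FPKM. The build is not given in the sources used here, but the table's coordinates and lengths equal those of GENCODE 29 on GRCh38. All 9 sample columns were used. Whether the libraries were separate cultures is not given, so p-values measure the spread between these libraries, which may be technical.

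Log2(FPKM + 0.1) of genes whose mean FPKM reached 0.1 was fitted with limma (3.58.1, R 4.3.3) with a variance trend and the group as the only term, and p-values were adjusted by Benjamini-Hochberg over all genes tested. Fold changes on this scale understate those of low genes. Python 3.11.15 was used for all other steps. FPKM times gene length was a whole multiple of 1 read for 100% of values (tolerance 0.05 reads), so reads were recovered for limma-voom and for the floor of 3 reads per library. The floors cover counting error only, and the SDs and SEs come from the spread between libraries. The tests were tested on simulated data.

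The members, the gene lists and the named genes were chosen with earlier results of these data known. Named were members whose mean FPKM reached 1, the highest member of each class, the 5 largest called rises and falls per comparison, testis members and near-identical copies, and, in the other lists, genes past both thresholds and a few fixed ones. Further members with low levels were named after their values were seen. The octamer motif, the H1 box and AATAAA were added after the data were seen. Alternatives were other pseudocounts, filters and scalings, 2-group fits, a replicate block, no trend, limma-voom, a GC correction and each library left out.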

Additional observations from a re-analysis of the deposited data

How the results depend on the processing

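The depth of these libraries limits the low members: the WT values of HIST1H3B, 0.098, 0.292 and 0.584 FPKM, rest on 1, 3 and 6 reads. The counts of members called against WT moved with the pseudocount, the filter and the groups fitted. With a pseudocount of 1, 10 members passed both thresholds in the KO-labelled libraries and 9 in A20-OE, in place of 17 and 16. With a mean FPKM of at least 1, which leaves fewer genes to test, 11 members were called at an adjusted p under 0.05 in each of these comparisons, in place of 18, and 11 passed both thresholds in the KO-labelled libraries. With the 2 groups fitted alone, 14 members were called in the KO-labelled libraries against WT and 13 passed both thresholds. In A20-OE against the KO-labelled libraries, where no member passed both thresholds, 1 did with a pseudocount of 0.01 (HIST1H2AH, lower), with only the 2 groups compared (HIST1H4B, lower) and with limma-voom (HIST1H2BC, higher), and 1 was called at an adjusted p under 0.05 with no variance trend in place of 2. With each library left out in turn, the counts past both thresholds ranged from 14 to 19 in the KO-labelled libraries against WT, from 15 to 18 in A20-OE against WT and from 0 to 2 in A20-OE against the KO-labelled libraries, and at an adjusted p under 0.05 from 15 to 20, 16 to 18 and 0 to 4. The log2 ratio of the HIST2 sums in the KO-labelled libraries against WT ranged from 0.29 to 0.97 in these fits. The causes of these differences were not tested.

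Over all genes, limma-voom called 1012 higher and 1641 lower in A20-OE against the KO-labelled libraries, beside 958 and 982 in the main test, and a pseudocount of 1 left 329 genes higher past both thresholds in the KO-labelled libraries against WT, beside 1063.

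Replicate numbers are shared between the groups, but nothing says that they pair the libraries, and deviations from the group means correlated by 0.037 on average between libraries of the same number (lowest -0.027, highest 0.12). With that number as a block, 15, 0 and 16 members passed both thresholds in the KO-labelled libraries against WT, in A20-OE against these and in A20-OE against WT, and 16, 3 and 19 were called at an adjusted p under 0.05. Under the block HIST1H1C was called higher in A20-OE than in the KO-labelled libraries (limma adjusted p = 0.0292) and HIST2H2AC and HIST1H3J lower in A20-OE than in WT (limma adjusted p = 0.0423 and 0.0417).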
